A study of Mus musculus with 2 samples.

Results

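Macrophages make proteins on both sides of clot formation and clot removal, and 9 genes of these systems were read from the expression table of WT and ΔM bone marrow-derived macrophages (BMDMs). The genes were *Plau*, *Plat*, *Plaur*, *Serpinb2*, *F3*, *F10*, *Thbd*, *Tfpi* and *Thbs1*, taken by their symbols, 9 of the 37451 genes in the table. The RNA-Seq comprised 2 libraries, 1 of WT and 1 of ΔM BMDMs, made as controls for a study of the RNA-binding protein tristetraprolin (TTP, gene *Zfp36*). Both genotypes were littermates on C57BL/6, aged 7 to 9 weeks. ΔM mice carried floxed TTP alleles and LysMCre (TTP fl/fl LysMCre), in which the lysozyme M locus drives Cre in myeloid cells. In both groups macrophages were grown from bone marrow with CSF-1 from L929 cells, exposed to 100 μM 4-thiouridine (4sU) for 16 h and then treated with 10 ng/ml LPS for 6 h, so neither library shows unstimulated or unlabeled cells. The time is that of the protocol in the labels, and the 7 at the end of the sample titles (LPS7) is not explained there. The deposited value is the FPKM, the number of fragments per kilobase of exon, scaled to all mapped fragments of the library. Each genotype has 1 library and thus no replicate, so the differences below have no replicate check and no p-value, and intervals cover counting error only.

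Plasmin, the protease that dissolves fibrin, is cut from plasminogen by the urokinase (*Plau*) and tissue-type (*Plat*) activators. Urokinase is held at the cell surface by its receptor (*Plaur*), and the activators are blocked by serpins such as PAI-2 (*Serpinb2*). Coagulation starts when tissue factor (*F3*) binds factor VIIa and activates factor X (*F10*), a step that is inhibited by *Tfpi*, while thrombomodulin (*Thbd*) redirects thrombin to activate protein C. TTP binds AU-rich elements in mRNAs and promotes their decay, and its best-known binding motif is the heptamer UAUUUAU, written below in DNA letters as TATTTAT.

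The annotation of mm9, the build of the table, places a TATTTAT in the 3′ UTR of 7 of the 9 genes, and *Plaur* and *F10* lack it. The sequences are shown because the study concerns a protein that binds such elements. Each line gives the first heptamer after the stop codon with up to 10 nt on both sides, 5′ to 3′ on the strand of the gene, with the heptamer in capitals.
Plau (chr14:21662540-21662566, plus strand): ctgctattttTATTTATatctattttt
Plat (chr8:23893210-23893236, plus strand): aacactagtaTATTTATattttaatct
Serpinb2 (chr1:109421775-109421801, plus strand): tttacagtgtTATTTATtgtttatata
F3 (chr3:121437871-121437897, plus strand): tgggattttcTATTTATatagcttcta
Thbs1 (chr2:117951768-117951794, plus strand): caatgtaataTATTTATtttgttcccc
Thbd (chr2:148231589-148231615, minus strand): atgacccagaTATTTATtttttttaaa
Tfpi (chr2:84283278-84283304, minus strand): gatgcttttaTATTTATtattgattaa

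The TTP binding sites that the study determined by crosslinking include sites in *Plaur* and *F10*, the members without the heptamer in the 3′ UTR. The lines below show the last 30 nt of the longer *Plaur* site, which covers 35 nt in the 3′ UTR of exon 7, the last exon, and begins 178 nt after the stop codon. They also show the longest 2 *F10* sites, which lie in intron 6 of 8. Capitals mark each TTATT, a shorter AU-rich run that is part of the 9-letter consensus of TTP.
Plaur, 3′ UTR (chr7:25260673-25260702, plus strand): ctgTTATTATTATTATTatcattgTTATTg
F10, intron (chr8:13050458-13050475, plus strand): catttgtTTATTtcttta
F10, intron (chr8:13050496-13050511, plus strand): tTTATTTATTcatttt
Sites were read for 496 genes, among them 2 of the 9 members, from a copy of the list that may be shortened, so nothing is said of crosslinked sites in the other 7 members. The longer *Plaur* site holds 5 overlapping or separate TTATT runs but neither the heptamer nor its central pentamer ATTTA. The other *Plaur* site, of 3 nt (tta), begins 220 nt after the stop codon. It lies within an ATTTA of the 3′ UTR that begins at 218 nt. The second *F10* site holds 1 heptamer. FPKMs are counted over exons and do not measure an intron.

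The step between low FPKMs gave an estimate of 37100000 fragments in WT and 32900000 in ΔM, from which the 95% counting intervals (exact Poisson) were calculated. The targeted gene *Zfp36* had 65.26 FPKM in WT and 16.71 in ΔM, and its log2 ratio was -1.90. Here and below, log2 ratios set ΔM against WT with 1 FPKM added to each. All 9 macrophage markers reached a mean of 1 FPKM, 5 above and 4 below their WT level. *Lyz2*, the locus that carries the Cre, was at 2481 FPKM in WT and 1356 in ΔM, and *Mrc1* at 5.45 and 11.56 FPKM. No marker was past 2-fold with the pseudocount, but without it the ratio of *Mrc1* was 2.12 (1.97 to 2.29). Markers of fibroblasts, platelets, dendritic cells, mast cells and lymphocytes summed to less than 1 FPKM per list in both libraries. The neutrophil list held 1 of 7 genes at a mean of 1 FPKM, *S100a8*, at 50.7 FPKM in WT and 100.02 in ΔM. *Camp* was listed at 0 in WT and at 0.41 FPKM in ΔM, from about 0 and 5 fragments. *Mpo* was at 0.09 FPKM in WT and 0.05 in ΔM, and *Ltf* at 0.02 in both. *Ly6g* and *Elane* were listed at 0 in both. *S100a9*, the partner of *S100a8*, was also listed at 0 in both, so a 0 in this table may be a failed estimate. Only uniquely mapped reads were kept, and *Gapdh*, a gene of every cell, was at 3.59 and 2.54 FPKM, with 84.0% of its 100-nt windows matching elsewhere in the genome. Such windows made up 2.31% of *F10* and 0% of each other member.

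In WT BMDMs *F10* had the highest level of the 9 genes, followed by *Serpinb2* and *Plaur* at levels whose counting intervals overlapped. *Thbs1* and *Tfpi* formed a middle pair, again with overlapping intervals, and *Plau* was lower. *Plat*, *F3* and *Thbd* were each below 1 FPKM. In ΔM BMDMs the order differed at the top, where the intervals of neighbours *Plaur*, *Serpinb2* and *F10* overlapped, and at the bottom, where *F3* and not *Thbd* was lowest. *F10* accounted for 42.9% of the summed FPKM of the 9 genes in WT and for 26.9% in ΔM. The share of *Plaur* was 22.3% in WT and 31.2% in ΔM. *Serpinb2* took 22.5% and 29.0%.

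**Figure D1:**
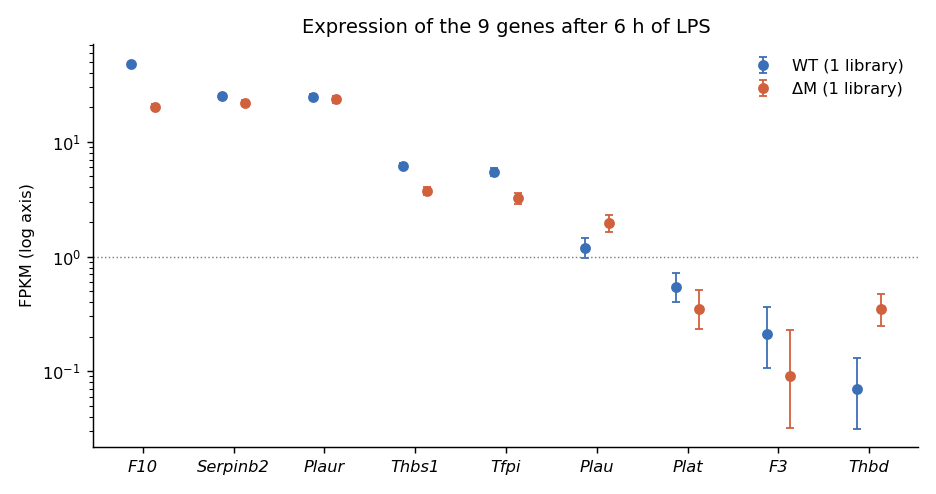
FPKM (log axis) of the 9 genes in the WT library (blue) and the ΔM library (orange), ordered by the WT level. Each point is 1 library, the bars are 95% Poisson counting intervals and the dotted line marks 1 FPKM; *F10* was at 47.56 in WT and 20.24 in ΔM, and *Plat*, *F3* and *Thbd* lie below the line in both.

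Of the 9 members, 6 reached a mean of 1 FPKM, the minimum for a gene to be compared here. Of these 6, 1 was lower in ΔM by at least 2-fold (*F10*) and 0 were higher by that much. Over all 10765 genes that reached the minimum, 3.61% were lower and 5.69% higher by at least 2-fold. Over the 8078 protein-coding genes among them the shares were 1.32% and 1.19%. Irrespective of size, 5 of the 6 members were lower in ΔM and 1 was higher, where 50.2% of protein-coding genes were lower. The median log2 ratio of the 6 members was -0.40, with a range from -1.19 to 0.43, and that of all genes compared was 0.03. Leaving the pseudocount out, the interval of the FPKM ratio lay below 1 for 4 of the 6 members and above 1 for 1. At these depths counting error is small, and by the same criterion 29% of 8058 protein-coding genes lay below 1 and 26.8% above. In bulk RNA, fewer cells of a type and less RNA per cell cannot be told apart.

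**Figure D2:**
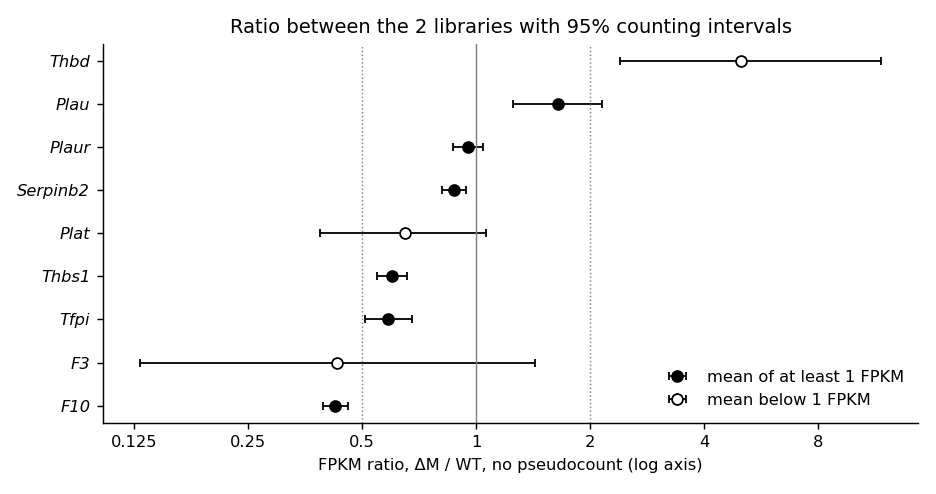
Ratio of ΔM to WT FPKM for the 9 genes on a log axis, without a pseudocount, with 95% counting intervals. Filled points are the 6 genes whose mean reached 1 FPKM, open points the 3 below it; dotted lines mark 2-fold. *F10* (0.426) is the lowest ratio and *Thbd* (5.0) the highest, and the bars of *Plaur*, *Plat* and *F3* cross 1.

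The urokinase gene *Plau* (ENSMUSG00000021822, chr14:21655884-21662610, plus strand) was at 1.19 FPKM in WT (interval 0.967 to 1.46) and 1.96 FPKM in ΔM (1.65 to 2.31). It was the 1 member above the minimum with the higher level in ΔM. The FPKM ratio of ΔM to WT was 1.65 (1.25 to 2.15) from about 95 and 138 fragments, and the log2 ratio with the pseudocount was 0.43. Of all genes compared, 84.3% had a lower log2 ratio. The other activator, *Plat* (ENSMUSG00000031538, chr8:23868216-23893319, plus strand), was at 0.54 FPKM in WT and 0.35 in ΔM. Its ratio of 0.648 had an interval from 0.388 to 1.06, so a difference was not detectable at this depth. Summed, the activators had 1.73 FPKM in WT and 2.31 in ΔM, most of it from *Plau*.

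The urokinase receptor gene *Plaur* (ENSMUSG00000046223, chr7:25247519-25260892, plus strand) was at 24.65 FPKM in WT (23.2 to 26.2) and 23.47 FPKM in ΔM (21.99 to 25.04). The libraries overlapped within counting error, with an FPKM ratio of 0.952 (0.871 to 1.04). *Plaur* carries the crosslinked site with the TTATT runs shown above, but a TTATT is common. At least 1 was present in the 3′ UTR of 69.7% of 7935 protein-coding genes that reached the minimum. The 3′ UTR of *Plaur* held 6 in 402 nt, that of *Thbd* 6 in 1742 nt, *Thbs1* 8 in 2104 nt and *Tfpi* 10 in 3063 nt. Per length, the receptor exceeded its ligand *Plau* 20.7-fold in WT and 11.97-fold in ΔM.

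*Serpinb2* (ENSMUSG00000062345, chr1:109408000-109432055, plus strand), which encodes the activator inhibitor PAI-2, was at 24.87 FPKM in WT (23.7 to 26.1) and 21.78 FPKM in ΔM (20.6 to 23.0). The ΔM level was slightly lower, with an FPKM ratio of 0.876 (0.814 to 0.943) and a log2 ratio of -0.18. Of all genes compared, 25.5% had a lower log2 ratio. The pseudogene *Serpinb10-ps* overlaps *Serpinb2* on the same strand and was at 0.01 and 0 FPKM. No other member overlaps an annotated gene for which an FPKM was listed.

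*F10* (ENSMUSG00000031444, chr8:13037308-13056676, plus strand), the gene of coagulation factor X, was at 47.56 FPKM in WT (45.7 to 49.4) and 20.24 FPKM in ΔM (19.0 to 21.6). The libraries were far apart on the scale of counting error, from about 2593 and 979 fragments. The WT level was 2.35-fold that of ΔM (2.18 to 2.53), and the log2 ratio was -1.19. Of all genes compared, 2.92% had a lower log2 ratio, and 85.0% had a lower WT level. Of the 389 genes past 2-fold on the lower side, 107 were protein-coding.

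Each protein-coding gene found within 50 kb of *F10* was listed lower in ΔM, by differing amounts. The processed transcript *Gm17023* and the pseudogene *Gm17022* (0 and 0.04 FPKM) were listed higher. *F7*, the gene of factor VII, which ends 1499 bp before *F10* on the same strand, was at 1.33 FPKM in WT and 0.95 in ΔM. Its ratio of 0.714 had an interval from 0.475 to 1.07, so a difference was not detectable at this depth. *Mcf2l*, another gene of this strand 16403 bp away, was at 1.86 and 0.45 FPKM, a log2 ratio of -0.98. *Gm17023*, annotated as a processed transcript on the strand of *F10* and 19401 bp away, was at 1.63 FPKM in WT and 2.52 in ΔM. *Pcid2*, on the opposite strand 20513 bp away, was at 37.47 and 36.36 FPKM. *Cul4a*, 48945 bp away, was at 12.59 and 10.53 FPKM. *Proz*, 4232 bp away, was at 0.11 and 0.08 FPKM (ratio 0.727, 0.156 to 3.17). No interval is given for *Mcf2l*, *Gm17023*, *Pcid2* and *Cul4a*. The protein-coding genes whose levels in the 2 libraries came closest to those of *F10* were *Nop56*, *Fscn1* and *Mllt6*. On the log2(FPKM + 1) scale they lay 0.145, 0.197 and 0.234 away. *Nop56* was at 45.77 FPKM in WT and 22.32 in ΔM, *Fscn1* at 42.22 and 18.79, and *Mllt6* at 49.35 and 23.88. With 2 libraries this is a likeness of 2 values only.

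Tissue factor, the starter of the extrinsic pathway, was close to the limit of detection in both libraries. *F3* (ENSMUSG00000028128, chr3:121426455-121437970, plus strand) was at 0.21 FPKM in WT (0.108 to 0.364) and 0.09 FPKM in ΔM (0.0318 to 0.228), from about 12 and 5 fragments. Its FPKM ratio of 0.429 had an interval from 0.130 to 1.43, so the depth does not show a difference.

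The gene of its inhibitor, *Tfpi* (ENSMUSG00000027082, chr2:84273012-84316932, minus strand), was at 5.47 FPKM in WT (5.02 to 5.94) and 3.21 FPKM in ΔM (2.86 to 3.61). The intervals did not overlap, and WT was 1.70-fold above ΔM (1.47 to 1.97), which is short of 2-fold. The log2 ratio of *Tfpi* was -0.62, and 6.91% of genes compared had a lower one. The ratio of *F10* to *Tfpi* FPKM was 8.69 in WT and 6.31 in ΔM. Endothelial cells are a main source of *Tfpi*, and 1 of 6 endothelial markers, *Kdr*, was at 5.59 FPKM in WT and 3.23 in ΔM. The 6 markers summed to 6.22 FPKM in WT and 3.61 in ΔM, with *Pecam1* at 0.58 and 0.33 FPKM (ratio 0.569, 0.362 to 0.890), *Cdh5* at 0.02 and 0.04, *Tek* at 0.01 and 0 and *Cldn5* listed at 0 in both.

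*Thbd* (ENSMUSG00000074743, chr2:148230207-148233924, minus strand), the gene of the thrombin receptor thrombomodulin, was at 0.07 FPKM in WT (0.0315 to 0.131) and 0.35 FPKM in ΔM (0.247 to 0.471). The intervals did not overlap, but the values rest on about 9 and 40 fragments. The FPKM ratio of ΔM to WT was 5.0 (2.39 to 11.7). Ratios of such low genes vary widely between these libraries. Of 6061 protein-coding genes with a mean below 1 FPKM that were above 0 in both, 21.2% were at least 2-fold higher and 18.7% at least 2-fold lower without a pseudocount, and 4.74% had a ratio at least as high as *Thbd*. On the log2(FPKM + 1) scale *Thbd* differed by 0.34.

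*Thbs1* (ENSMUSG00000040152, chr2:117937612-117952869, plus strand) encodes thrombospondin-1, a matrix glycoprotein that is released by platelets and macrophages. It was at 6.19 FPKM in WT (5.86 to 6.54) and 3.72 FPKM in ΔM (3.45 to 4.01), from about 1297 and 691 fragments. WT was 1.66-fold above ΔM (1.52 to 1.83), and the log2 ratio was -0.61, with 7.10% of genes compared below it. *Thbs1* and *Tfpi* thus had like levels and like ratios. The 7 platelet and megakaryocyte markers were all below the minimum, and they summed to 0.89 FPKM in WT and 0.38 in ΔM. *Itga2b* was at 0.46 and 0.20 FPKM (ratio 0.435, 0.247 to 0.724). *Ppbp* was at 0.24 and 0.03 FPKM, from about 8 and 1 fragments, with a ratio interval from 0.00318 to 1.05. *Treml1* was lower in ΔM (0.15 and 0.06 FPKM), and *Gp5* (0.03 and 0.05) and *Gp1ba* (0.01 and 0.04) were higher, each with an interval that holds 1. *Gp1bb* and *Gp9* were listed at 0 in both. The part of the endothelial and platelet markers in the values of *Tfpi* and *Thbs1* was not tested.

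**Figure D3:**
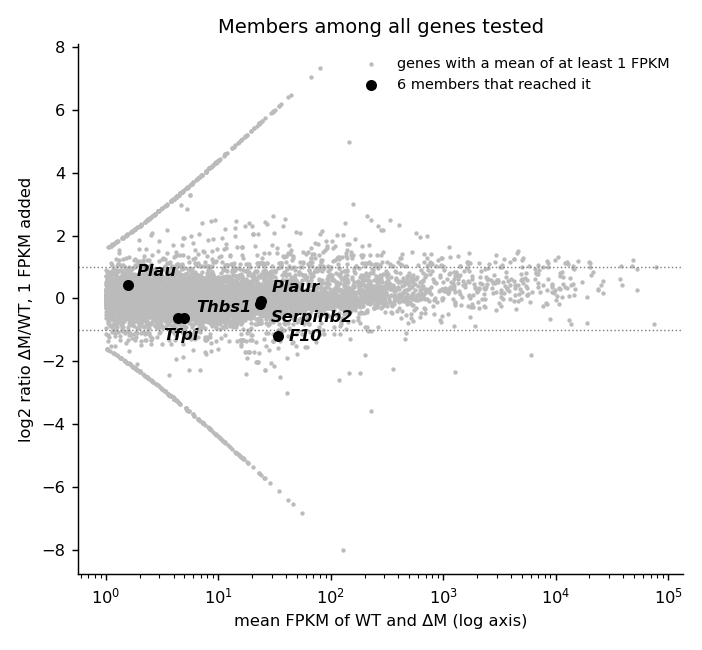
Log2 ratio of ΔM to WT (1 FPKM added) against the mean FPKM of both libraries (log axis) for the 10765 genes whose mean reached 1 FPKM (grey). Black points are the 6 members that reached it and dotted lines mark 2-fold; *F10* lies just below the lower line, and the outer diagonals are genes listed at or near 0 in 1 library.

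The other genes of these systems were taken from lists by role. Of 54 such genes 20 reached the minimum, 1 of which was lower and 0 higher in ΔM by at least 2-fold. The median log2 ratio of the 20 was -0.06, with 7 above and 13 below their WT level. The gene past 2-fold was *Fgg*, the fibrinogen gamma chain, at 2.37 FPKM in WT and 0.60 in ΔM, a log2 ratio of -1.07. Its partner *Fga* was listed at 0 in both, and *Fgb* at 0 in WT and 0.02 FPKM in ΔM.

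In the plasminogen system 8 of 15 other genes reached the minimum, 4 above and 4 below their WT level, with a median log2 ratio of 0.02. *Anxa2*, a cell surface receptor for plasminogen and tissue-type activator, was the highest, at 536.43 FPKM in WT and 533.03 in ΔM. Plasminogen itself (*Plg*) was listed at 0 in WT and at 0.01 FPKM in ΔM. The serpin gene *Serpinb8* was at 3.15 FPKM in WT and 5.81 in ΔM (ratio 1.84, 1.60 to 2.12). *Lrp1*, which takes up complexes of protease and inhibitor, was at 45.73 and 56.96 FPKM.

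Of 19 other coagulation genes, 7 reached the minimum, with a median log2 ratio of -0.28. The highest in WT was *Lman1*, a cargo receptor for factors V and VIII, with 20.88 FPKM in WT and 16.63 in ΔM. Its partner *Mcfd2* was at 20.03 FPKM in WT and 30.63 in ΔM, the highest in that library, with a ratio of 1.53 (1.35 to 1.73). Of 10 other anticoagulant genes 3 reached it. *Anxa5*, which covers procoagulant phospholipid, was the highest at 235.58 and 225.42 FPKM, and *Procr*, the protein C receptor that acts with thrombomodulin, was at 67.73 FPKM in WT and 40.27 in ΔM (log2 ratio -0.74). *Pros1*, the gene of protein S, was at 6.31 and 7.49 FPKM. None of the 4 protease-activated receptors, through which thrombin and factor Xa signal, reached the minimum, and *F2rl1* was the highest of them in WT at 0.07 FPKM. Of 6 thrombospondin family members and receptors 2 did, *Cd47* at 207.25 and 202.49 FPKM and *Cd36*, a scavenger receptor that binds thrombospondin-1, at 59.56 and 43.8 FPKM.

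**Figure D4:**
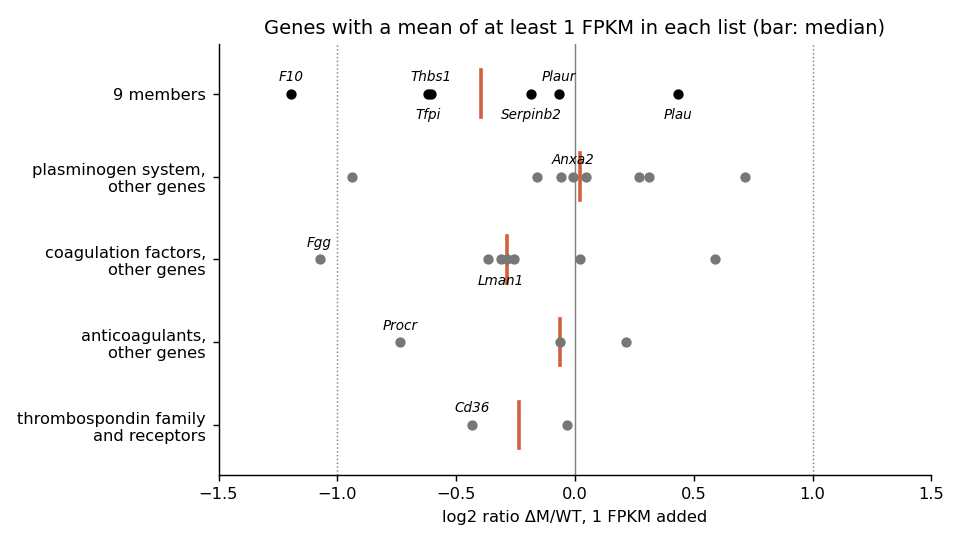
Log2 ratio of ΔM to WT (1 FPKM added) of each gene whose mean reached 1 FPKM, for the 9 members (black, 6 genes) and 4 lists of related genes (grey, 20 genes). Orange bars are medians and dotted lines mark 2-fold; *F10* and *Fgg* are the 2 genes outside the lines.

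The 3′ UTRs of the 9 genes were compared with those of 7935 protein-coding genes that reached the minimum, on the longest coding transcript and the sense strand. *Plat*, *F3* and *Thbd* did not reach it and are not among the 7935, so the 2 sets differ in level. A heptamer was present in 7 of the 9 members and in 26.9% of the 7935 genes. Of the members that reached the minimum, *Plau*, *Serpinb2*, *Thbs1* and *Tfpi* held one, and *Plaur* and *F10* did not. The pentamer ATTTA, which every heptamer contains, was present in 8 of 9 members and in 66.0% of the genes. *Thbs1* and *Thbd* held 3 heptamers each, a number reached by 3.07% of the genes, and in *Thbd* the last 2 overlap. Their 3′ UTRs were long, 2104 nt in *Thbs1* and 1742 nt in *Thbd*, where the median of the genes was 986 nt. *Tfpi* held 2, the first 66 nt after the stop codon, and also had the longest 3′ UTR (3063 nt) and 11 pentamers. *Plau*, *Plat*, *Serpinb2* and *F3* held 1 heptamer each, and *F3* had 7 pentamers within 813 nt. The 3′ UTR of *Serpinb2* was the richest in A and T (71.3%) and held 5 pentamers.

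*Plaur* had 2 pentamers in 402 nt and no heptamer. *F10* had neither motif in the 794 nt of its 3′ UTR, and its A and T content was the lowest of the 9 (51.6%). The 7 members with a heptamer thus included the members with higher FPKM in ΔM (*Plau*, *Thbd*) as well as *Thbs1*, *Tfpi* and *Serpinb2*, which were lower. Over the genes compared, the median log2 ratio was 0.00 for the 2136 genes with a heptamer and -0.01 for the 5799 without. A match is a description of the annotated sequence and not a binding site.

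**Figure D5:**
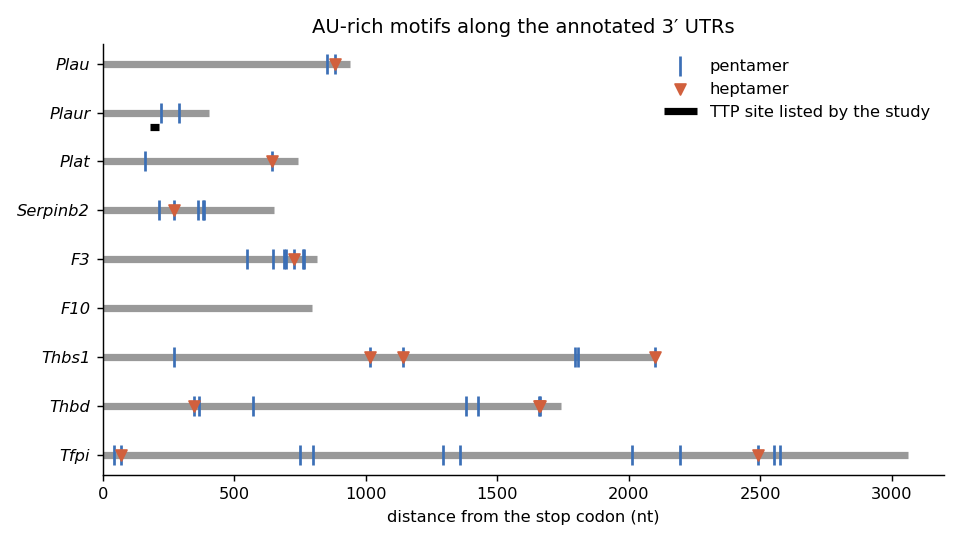
Annotated 3′ UTRs of the 9 genes (grey bars, mm9), drawn to scale from the stop codon in nt. Blue ticks are pentamers, orange triangles heptamers and the black bar is the 35-nt *Plaur* site; *F10* carries no mark, and *Tfpi* has the longest 3′ UTR (3063 nt) with 2 heptamers.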

How the data were processed

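The authors depleted rRNA, fragmented the RNA, ligated a 3′ adaptor and sequenced size-selected cDNA as paired ends. They trimmed reads, kept unique alignments to mm9 by Segemehl and calculated FPKM with Cufflinks on Ensembl exons. The deposited table holds 1 FPKM per gene and library and is not counts. Its second value column is headed with M after an unreadable character and was taken as ΔM, the sample title it matches. Whether counting used strand is not given in the sources used here.

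Log2 ratios used a pseudocount of 1 FPKM, for genes whose mean reached 1 FPKM, and understate differences of low genes. Fragments were estimated from FPKM steps (a search tested on simulated data). Whole multiples, within 0.1 fragment, made up 88.7% (WT) and 91% (ΔM) of the low values used, where 20% would be by chance. Intervals are exact Poisson (FPKM) or exact conditional binomial (ratios) at 95%. They use the median transcript length of each gene and are approximate. The GENCODE M1 annotation of NCBIM37 (mm9) held 37039 of the 37451 identifiers. Site sequences come from the study's site list. Windows were aligned with minimap2 2.31-r1302. Python 3.11.15, numpy 2.4.6, pandas 2.3.3, scipy 1.17.1 and matplotlib 3.10.9 were used.

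The members and lists were chosen with earlier results of these data known. Named genes are the members, *Zfp36*, pathway list genes past 2-fold, the highest WT gene of each pathway list, genes that overlap a member and the 3 nearest genes to the member with the largest ratio. *Procr*, *Pros1*, *Cd36*, *Serpinb8*, *Lrp1*, *Mcfd2*, *Fga*, *Fgb*, *Plg*, *F7*, *Mcf2l*, *Gm17023*, *Gm17022*, *Pcid2*, *Cul4a*, *Proz*, *Gapdh* and the single markers were named after their values were seen. Alternatives covered the pseudocount, the minimum, the fold, centring, gene type and the 3′ UTR definition. Values of 1 listed gene are not reported here.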

Additional observations from a re-analysis of the deposited data

How the results depend on the processing

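Of 60 alternative values 0 reversed, and 18 moved, that is, left the counting interval of the reported value or, for a count, changed by over 1.5 times. Counts and shares could not reverse, and a pseudocount cannot change the sign of a gene's log2 ratio. The 0 was thus largely fixed in advance and is no measure of robustness. The counting intervals differ in width, so *Plau* counted among the 42 others at 0.68 with a pseudocount of 0.1 FPKM, as did *Tfpi* at -0.77 without one. Centring on the median gene shifted log2 ratios by 0.04. With a pseudocount of 0.1 FPKM the log2 ratio was -0.51 for *Plat*, -0.71 for *F3*, -0.72 for *Thbs1* and 1.40 for *Thbd*. Without one it was 0.72 for *Plau*, -0.63 for *Plat*, -1.22 for *F3*, -0.73 for *Thbs1* and 2.32 for *Thbd*. The median of the members was -0.18 with a minimum mean of 10 FPKM, which leaves 3 members, and -0.18 with no minimum, which keeps all 9. At 1.5-fold, 3 of the 6 members that reached the minimum were lower (*F10*, *Thbs1* and *Tfpi*) and 0 higher. *Plau*, with an FPKM ratio of 1.65 without the pseudocount, was short of 1.5-fold with it. Of all 10765 genes compared, 808 were lower and 1202 higher by 1.5-fold, and the share of protein-coding genes was not calculated at this fold. Genes past 2-fold on the lower side numbered 130 with a minimum of 10 FPKM and 107 among protein-coding genes, and on the higher side 306 and 96. No paired analysis was possible because each genotype has 1 library, and none could be left out. Spread between animals or cultures is unknown. Depth limits *Plat*, *F3* and *Thbd*, and FPKMs with 2 decimals are coarse at such levels. Intervals rest on an estimated depth and 1 length per gene, and isoform use, for example among the 6 annotated transcripts of *F10*, was not tested.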
